A study of Mus musculus with 6 samples.

Results

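Cycling and resting myeloid cells of mouse rhabdoid tumors were compared within each tumor. Of 22163 single cells kept from 6 tumors, 14140 were myeloid: they held at least 2 unique molecular identifiers (UMIs) of *Tyrobp*, the gene of an adaptor that myeloid and natural killer (NK) cells use for activating receptors, none of the T cell genes *Cd3d*, *Cd3e* and *Cd3g*, and fewer than 2 of the tumor and stromal genes *Meg3*, *Serpinh1*, *Col1a2* and *Prrx1*. A myeloid cell was called cycling if at least 3 of 8 genes of late S, G2 and M phase were detected in it (*Ccnb1*, *Ccnb2*, *Cdk1*, *Birc5*, *Cenpf*, *Mki67*, *Top2a* and *Ube2c*), and resting if none was. This gave 1688 cycling and 9738 resting cells, and 2714 cells with 1 or 2 of the genes entered neither state. "Resting" therefore means that none of the 8 transcripts was seen, which a cell in G1 or early S phase, or a cell sequenced to a low depth, also meets.

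The tumors came from mice in which both copies of the chromatin remodeling gene *Smarcb1* carry loxP sites. A tamoxifen-inducible cre recombinase can delete them, and tamoxifen was given during early gestation. The 3 MYC spinal tumors (MYC spinal 1, 2 and 3, from mice aged 19, 26 and 17 weeks) and eRT 1 (17 weeks, an extracranial tumor of a gland) arose with cre under the *Rosa26* promoter, which is active in most cell types, and the extracranial tumors eRT 2 (jaw, 29 weeks) and eRT 3 (shoulder, 22 weeks) arose with cre under the *Sox2* promoter. All mice carried the loxP sites and cre, and the paper saw recombination in only a few cells of embryos of both models. *Smarcb1* transcripts were detected in 5.49% to 41.6% of cycling and 1.94% to 24.1% of resting cells of the 5 tumors compared below, so these cells cannot be taken to lack the gene. From each mouse 1 tumor was taken, the numbers only name the tumors, and no tumor-free tissue was among the samples used here. Live cells were sorted without a lineage marker, and the 3′ ends of their transcripts were counted.

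A cell that divides first copies its DNA in S phase, with help from the MCM helicase, the polymerases and the enzymes that make deoxynucleotides. It then condenses its chromosomes and pulls them apart on the spindle under the control of cyclin B with CDK1, Aurora kinases and the anaphase-promoting complex, whose activator is *Cdc20*. In the myeloid lineage, granulocyte and monocyte progenitors divide, neutrophils leave the cycle as they mature, osteoclasts form by fusion of precursors that no longer divide, and tissue macrophages can divide in place.

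Genes of S phase and genes of mitosis carry different short elements in their promoters, which are background to the gene groups below: E2F sites (searched as TTCCCGC) at many replication genes, the cell cycle homology region (CHR, searched as TTTGAA) together with CCAAT boxes at many mitotic genes, and the interferon-stimulated response element (ISRE, searched as GAAA, any 2 bases and GAAA) at many genes that interferon induces. The 250 bases before the annotated start of 4 genes are shown 5′ to 3′ on the strand of the gene, from RefSeq on GRCm38.p6, with matches on either strand in capitals. *Cdc20*, at chr4:118437344-118437593 on the minus strand, and *Prc1*, at chr7:80294226-80294475 on the plus strand, stand for the mitotic genes. *Prim1*, at chr10:128014965-128015214 on the plus strand, stands for the replication genes and *Rsad2*, at chr12:26456453-26456702 on the minus strand, for the interferon-stimulated genes.
Cdc20: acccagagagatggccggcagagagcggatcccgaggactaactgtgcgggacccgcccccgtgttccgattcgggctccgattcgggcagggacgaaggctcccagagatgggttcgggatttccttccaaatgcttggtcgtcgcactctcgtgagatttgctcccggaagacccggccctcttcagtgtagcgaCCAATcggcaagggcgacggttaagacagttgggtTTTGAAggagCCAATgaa
Prc1: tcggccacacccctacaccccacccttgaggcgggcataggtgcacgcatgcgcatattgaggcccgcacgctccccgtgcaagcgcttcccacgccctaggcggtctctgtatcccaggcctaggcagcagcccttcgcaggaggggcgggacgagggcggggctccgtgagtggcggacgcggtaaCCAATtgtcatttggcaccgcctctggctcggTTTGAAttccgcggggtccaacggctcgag
Prim1: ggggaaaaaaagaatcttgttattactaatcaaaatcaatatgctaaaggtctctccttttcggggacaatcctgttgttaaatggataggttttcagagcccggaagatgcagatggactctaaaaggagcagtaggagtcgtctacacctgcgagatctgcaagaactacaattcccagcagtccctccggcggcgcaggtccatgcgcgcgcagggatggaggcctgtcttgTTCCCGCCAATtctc
Rsad2: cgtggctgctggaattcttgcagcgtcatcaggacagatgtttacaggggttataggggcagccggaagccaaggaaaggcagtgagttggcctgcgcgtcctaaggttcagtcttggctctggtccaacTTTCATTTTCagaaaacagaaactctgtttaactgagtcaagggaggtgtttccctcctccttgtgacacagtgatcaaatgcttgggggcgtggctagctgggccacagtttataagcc

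The capitals in *Cdc20* mark a CHR 18 bases before the start with CCAAT boxes 53 and 8 bases before it, and those in *Prc1* mark a CHR at 30 bases and a CCAAT box at 62. In *Prim1* an E2F match at 15 bases overlaps a CCAAT box at 9 bases, and in *Rsad2* an ISRE match lies 120 bases before the start. A match is a run of letters and not a shown binding site.

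The states differed in sequencing depth and in the kinds of cells they held, and these values stand before the comparisons because they touch all of them. Cycling cells had more UMIs than resting cells in each of the 5 tumors compared: the medians were 1761 and 730.5 in MYC spinal 2, 3962.5 and 2607.5 in MYC spinal 3, 7930 and 4467 in eRT 1, 5758.5 and 1383 in eRT 2, and 3543 and 2092 in eRT 3. With every cell thinned to 1000 UMIs, cycling cells still had more genes detected, with medians of 534 to 628 against 455 to 579 in resting cells of these tumors. Thinning left out cells below 1000 UMIs, so that 389 of 419 cycling but only 592 of 2062 resting cells of MYC spinal 2 remained. MYC spinal 1 held 4 cycling cells among 293 myeloid cells and entered the comparisons of shares but not those of the states. Of its 293 gated cells, 112 held at least 3 NK markers at their own depth, and 0 of these 112 were cycling. *Nkg7* was detected in 40.8% and *Ncr1* in 26.8% of its resting cells. Cell names in the tables are numbered within each tumor, so barcodes could not be set against each other, and no cell had the same counts as a cell of another tumor.

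The 24 cycling cells of eRT 2 went against their label. The gate keeps NK cells, which also express *Tyrobp*, and *Ncr1* and *Nkg7*, which define NK and cytotoxic cells, were each detected in 79.2% of these cells, against 2.52% and 5.04% of the resting cells of this tumor. The myeloid genes *Spi1* and *Itgam* were detected in 12.5% and 0% of them, against 40.5% and 21.9% of resting cells. At 1000 UMIs, 16 of the 24 (66.7%, 95% exact binomial interval 44.7% to 84.4%) held at least 3 of the NK markers. The summed level of the NK marker list was 4988 CPM (the UMIs of a gene or list scaled to a common library size) in these cells and 683 CPM in resting cells of eRT 2, while in the other 4 tumors compared it lay between 9.97 and 329 CPM in cycling and between 42.8 and 257 CPM in resting cells. T cell markers stood out too, at 778 CPM in the cycling and 90.6 CPM in the resting cells of eRT 2. At their own depth 9 of the 24 cycling cells held at least 3 of them. The cycling cells of eRT 2 are therefore called *Tyrobp*-positive cells with NK markers, some of which also hold T cell markers. The counts of called list genes over the 5 tumors, at the cells' own depth, are also given without this tumor. Erythroid transcripts also stood out in its resting cells (7012 CPM, against 67.7 CPM in its cycling cells and at most 300 CPM in the other tumors). Markers of fibroblasts and tumor cells lay between 4.89 and 56.9 CPM over both states of the 5 tumors.

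The 8 genes of the rule describe the selected cells and were not tested, since resting cells were chosen to lack them. *Birc5*, the inhibitor of apoptosis that serves in the chromosomal passenger complex, was detected in 67.1%, 87.6%, 95.2%, 95.8% and 88.3% of cycling cells of MYC spinal 2, MYC spinal 3, eRT 1, eRT 2 and eRT 3, the order of tumors used for all per-tumor values below. Its level in the summed cycling cells was 534, 549, 523, 636 and 653 CPM. *Top2a*, the topoisomerase that untangles sister DNA, varied more, at 511, 273, 199, 508 and 239 CPM, and *Mki67*, which coats mitotic chromosomes, stood at 403, 141, 129, 244 and 177 CPM. The cyclin B gene *Ccnb2* lay between 222 and 343 CPM and its kinase *Cdk1* between 160 and 230 CPM. Of all cycling cells, 570 held exactly 3 of the genes and 89 held all 8, and 913 cells with 2 genes lay just outside the threshold.

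Across that threshold the levels changed by steps and not by a break. The spindle and kinetochore list (61 genes, without the rule's genes) was higher with each further rule gene in the 4 tumors with enough cells per step, as in eRT 3, where its sum was 842, 2018, 4175, 6033, 8072 and 8932 CPM in cells with 0, 1, 2, 3, 4 and at least 5 of the genes. Cells just outside the threshold stood at 5055, 3584, 3521 and 4175 CPM in MYC spinal 2, MYC spinal 3, eRT 1 and eRT 3, and cells just inside it at 6312, 5046, 5244 and 6033 CPM. The DNA replication list (43 genes) took another course. It was already at 2256 CPM in cells with 1 gene in MYC spinal 2, above the 1504 CPM of cells with at least 5, and in MYC spinal 3, eRT 1 and eRT 3 it went from 795, 836 and 709 CPM in cells without the genes to 1949, 2451 and 2138 CPM in cells with 3.

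**Figure D1:**
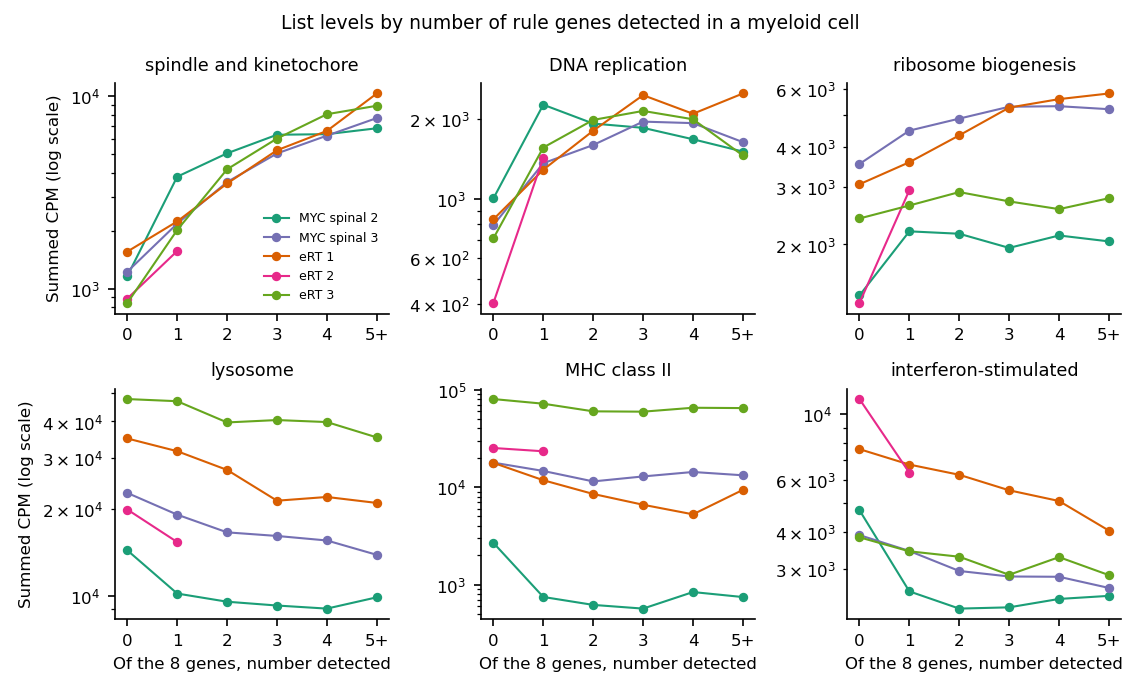
Summed CPM of gene lists (vertical axes, log scale) in myeloid cells grouped by how many of the 8 rule genes were detected (horizontal axes, 0 to 5 or more), with 1 line per tumor and points only where at least 20 cells were in the group. Spindle and kinetochore genes climb with every step, from 842 to 8932 CPM in eRT 3, while DNA replication genes reach most of their level in cells with 1 to 3 of the genes.

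Cells with replication transcripts were also found among cells called resting. At least 3 replication genes were detected in 10.1%, 33.6%, 50.2%, 5.75% and 17.1% of resting cells and in 48.0%, 78.4%, 88.1%, 91.7% and 63.8% of cycling cells at their own depth. After thinning to 1000 UMIs, with the states called again on the thinned counts, the shares were 23.5%, 12.2%, 11.4%, 2.02% and 6.96% of resting cells, and 18.7%, 22.6%, 26.0%, 45.5% and 23.1% of cycling cells. In MYC spinal 2 the share in cycling cells was then not above that in resting cells. Cells with several replication transcripts were thus part of the resting state in all 5 tumors.

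The share of myeloid cells that were cycling ranged widely between tumors. It was 1.37% in MYC spinal 1 (95% exact binomial interval 0.373% to 3.46%), 12.8% in MYC spinal 2, 14.8% in MYC spinal 3, 19.1% in eRT 1 (17.4% to 20.9%), 2.25% in eRT 2 (1.44% to 3.33%) and 6.50% in eRT 3. These intervals cover counting error only. Myeloid here means the gate, which keeps NK cells. At their own depth, 20 of the 24 cycling cells of eRT 2 held at least 3 NK markers, as did 112 of the 293 gated cells of MYC spinal 1. The shares and the tests on them were not computed without such cells, so the 2.25% of eRT 2 is not a share of cycling among cells with myeloid markers. The order moved with thinning. With every cell thinned to 1000 UMIs, which left 1564 of the 3266 myeloid cells of MYC spinal 2, this tumor had the highest share, 12.7% (198 of 1564 cells), followed by eRT 1 with 4.86%, MYC spinal 3 with 3.91%, eRT 3 with 2.17%, eRT 2 with 1.24% and MYC spinal 1 with 0.362% (1 of 276 cells). At 500 UMIs, which kept 2932 cells of MYC spinal 2, its share was 2.66%, against 1.57% in eRT 1 and 1.17% in MYC spinal 3, so the size of this gap rests on the depth chosen and on the cells that reach it. The subtypes overlapped. The unthinned shares averaged 9.28% ± 8.75 in eRT and 9.65% ± 7.24 in MYC spinal tumors (SD, n = 3 each), a difference of -0.378 percentage points (two-sided exact permutation test, p = 1, where 0.1 is the smallest p that 3 against 3 tumors allow), and the sign of this difference turned when cells had to hold at least 4 genes (0.956 points) and when any of MYC spinal 2, MYC spinal 3, eRT 2 and eRT 3 was left out (1.01 to 3.14 points).

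**Figure D2:**
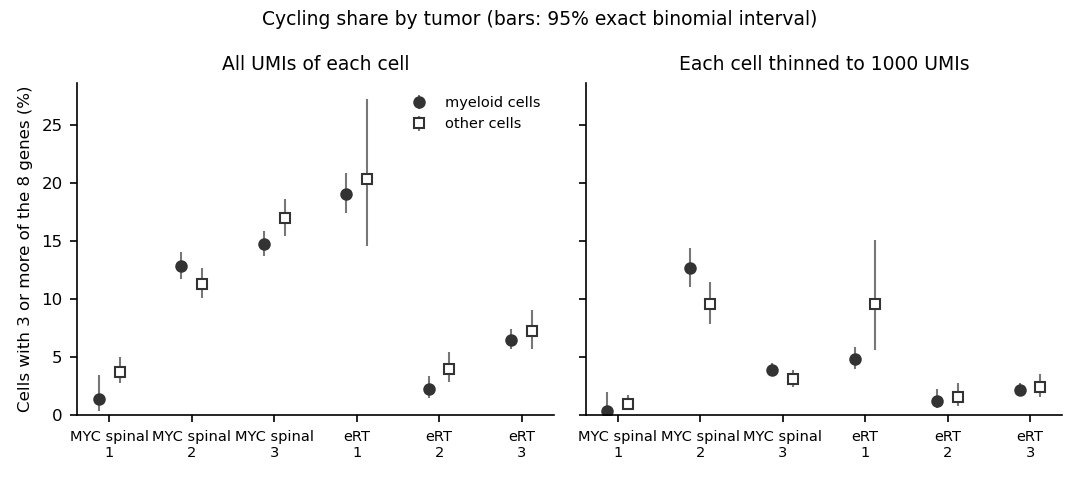
Percent of cells called cycling (vertical axes) in each of the 6 tumors, for myeloid cells and for all other kept cells, at their own depth and with every cell thinned to 1000 UMIs, with 95% exact binomial intervals as bars. After thinning, which leaves 1564 of 3266 myeloid cells of MYC spinal 2, its share is 12.7% and those of the other 5 tumors lie between 0.362% and 4.86%.

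This share was also compared between myeloid cells and all other kept cells, and no difference was detectable. The other cells are all those outside the gate, so any myeloid cells with fewer than 2 *Tyrobp* UMIs are counted among them. Such cells were not separated, so this does not compare myeloid cells with tumor cells or with non-myeloid cells alone. At 1000 UMIs 4.20% ± 4.46 of myeloid cells and 4.53% ± 3.96 of other cells, which include tumor cells and lymphocytes, were cycling (SD, n = 6 tumors). The difference of -0.324 points was positive in 2 of 6 tumors (two-sided exact sign-flip permutation test, p = 0.688, smallest possible 0.0313), and it was 0.556 points without eRT 1, where 9.58% of other cells (16 of 167) and 4.86% of myeloid cells were cycling.

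Which myeloid cells were cycling depended on the tumor. A cell was counted for a type when at least 3 of its markers were detected at 1000 UMIs, and a cell could count for several types. In MYC spinal 2, 60.7% of cycling cells held monocyte markers, against 35.1% of resting cells, and the order was the same at the cells' own depth (75.2% against 45.0%). For neutrophil markers the direction turned with the depth. At 1000 UMIs mature neutrophil markers were held by 47.0% of cycling and 71.3% of resting cells and immature neutrophil markers by 26.7% and 55.6%. Over all cells at their own depth the shares were 69.9% and 54.1% for mature and 38.9% and 37.1% for immature markers. Granulocyte-monocyte progenitor markers were held by 22.1% of its cycling and 17.6% of its resting cells at 1000 UMIs and by 31.5% and 7.18% at their own depth. In eRT 3, 99.5% of cycling and 95% of resting cells held macrophage markers at 1000 UMIs. In eRT 1 and MYC spinal 3 macrophage markers were held by 51.2% and 27.7% of cycling cells, against 59.8% and 32.0% of resting cells at 1000 UMIs. At their own depth these shares were 93.4% and 53.3%, against 89.0% and 48.5%. Osteoclast markers turned in the same way. At 1000 UMIs they were held by 19.4% of cycling and 32.3% of resting cells in eRT 1 and by 29.0% and 41.9% in MYC spinal 3. At their own depth the shares were 62.9% and 48.0% in eRT 1 and 49.4% and 48.2% in MYC spinal 3. The shares at their own depth compare cycling cells with more UMIs to resting cells with fewer, and those at 1000 UMIs leave out the shallow cells, so neither settles a direction that differs between them.

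**Figure D3:**
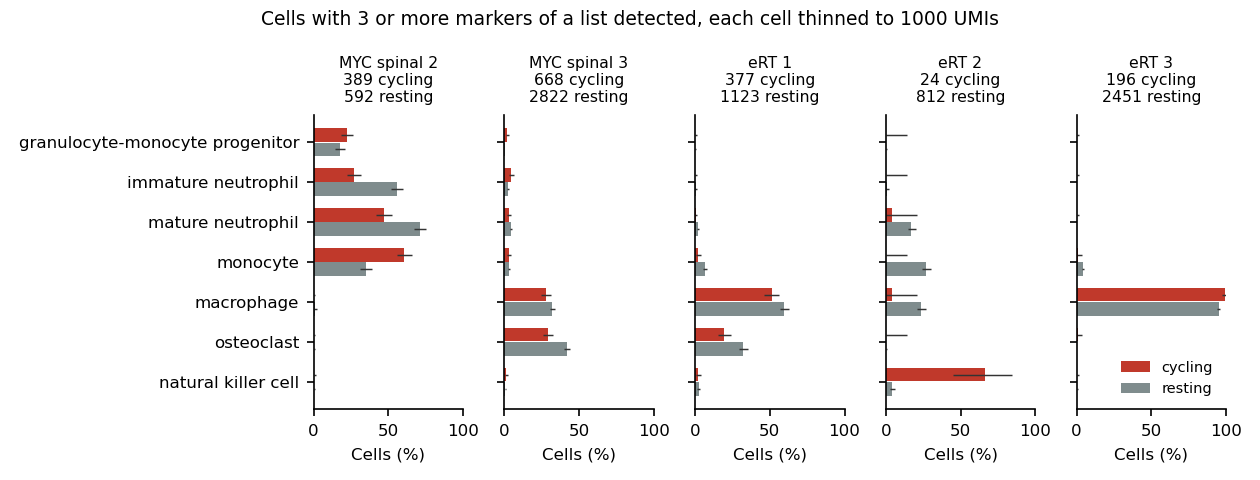
Percent of cycling and of resting *Tyrobp*-positive cells (horizontal axes) with at least 3 markers of each cell type (vertical axis) at 1000 UMIs, by tumor, with 95% exact binomial intervals as error bars. Monocyte markers lead among cycling cells of MYC spinal 2 (60.7%), macrophage markers in eRT 3 (99.5%) and NK markers in eRT 2 (66.7%).

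Read the other way, with the states called at 1000 UMIs, 18.0% of cells with monocyte markers in MYC spinal 2 were cycling (136 of 756), against 10.3% of those with mature neutrophil markers, 6.48% with immature neutrophil markers and 6.09% with progenitor markers (21 of 345). This order did not hold at the cells' own depth, where 26.7% of cells with progenitor markers (132 of 495), 18.1% with monocyte, 15.6% with mature neutrophil and 13.2% with immature neutrophil markers were cycling. At 1000 UMIs cells with macrophage markers were cycling in 3.33% (MYC spinal 3), 4.99% (eRT 1) and 2.23% (eRT 3), and cells with osteoclast markers in 2.20% and 2.18% in MYC spinal 3 and eRT 1 (15.2% and 22.8% at their own depth). In eRT 2 at 1000 UMIs, 9 of 60 cells with NK markers were cycling. So were 0 of 233 cells with monocyte markers, 0 of 204 with macrophage markers and 0 of 147 with mature neutrophil markers. These counts of 0 allow shares of up to 1.57%, 1.79% and 2.48% (upper bounds of the exact 95% intervals). At the cells' own depth 20 of 73 with NK, 3 of 377 with monocyte, 1 of 283 with macrophage and 3 of 290 with mature neutrophil markers were cycling. Monocyte and neutrophil markers overlap in MYC spinal 2, and free RNA from abundant neutrophils was not separated from expression within a cell.

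The summed UMI counts of cycling and resting cells were then compared gene by gene, paired within 5 tumors, with the edgeR quasi-likelihood test and Benjamini-Hochberg adjustment. In such sums, more cells of a type and more RNA per cell cannot be told apart. Of 8751 genes tested, 635 were higher (7.26%) and 467 lower (5.34%) in cycling cells at an adjusted p under 0.05. Without eRT 2, 914 (9.92%) were higher and 1001 (10.9%) lower of 9212. The other tumors moved the counts too. Without eRT 1, 263 were higher and 37 lower, and without MYC spinal 3, 305 and 123. Without MYC spinal 2 the counts were 493 and 309, and without eRT 3 436 and 398. The split rests on the scaling: with library sizes alone in place of the trimmed mean of M-values (TMM), 983 genes were higher and 269 lower, and the median log2 difference over all genes moved from -0.07 to 0.11. After thinning to 1000 UMIs, 117 genes (2.75%) were higher and 74 (1.74%) lower of 4248. Thinning equalized depth, changed which cells were called (198 in place of 419 cycling cells in MYC spinal 2), left out shallow cells and reduced the genes tested, all at once, and the part of each in the lower counts was not tested. Below, differences are log2 values of cycling over resting cells with their standard errors, and levels are CPM of the summed counts.

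Spindle and kinetochore genes carried the largest differences among the lists. Of 61 genes, 57 were tested, 56 were higher and 0 lower, with a median log2 difference of 4.20 (58 of 59 without eRT 2, and 28 of the 29 that could be tested after thinning). These genes belong to the same mitotic programme as the 8 genes that chose the cells, so their rise follows from the choice and is given as a description. *Nusap1*, which bundles spindle microtubules, stood at 133, 73.2, 88.7, 183 and 134 CPM in cycling and 7.12, 0.668, 1.22, 0.596 and 2.76 CPM in resting cells. Every cycling value lay above every resting value, and the difference was 5.61 ± 0.34 (adjusted p = 8.02e-06). *Prc1*, the midzone bundler whose promoter is printed above, stood at 147, 123, 91.6, 169 and 113 CPM against 7.12, 3.45, 0.700, 0.596 and 2.03 CPM, a difference of 5.39 ± 0.32 (adjusted p = 8.02e-06).

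*Cenpe*, a kinetochore motor (5.25 ± 0.29), *Aurkb*, the kinase of the chromosomal passenger complex (4.63 ± 0.39), *Cdca8*, its partner (4.6 ± 0.26), and *Tpx2*, which activates Aurora A on the spindle (4.52 ± 0.28), followed among the 10 largest rises. *Cdc20* rose by 4.90 ± 0.45 (adjusted p = 0.000614), from 8.77, 5.57, 3.67, 0.596 and 3.5 CPM in resting to 68.4, 140, 197, 162 and 185 CPM in cycling cells. The resting level of MYC spinal 2 was the highest and its cycling level the lowest, so this tumor had the smallest difference. In eRT 2, 1 UMI is worth 0.596 CPM in the resting and 6.77 CPM in the cycling sum, so its low values rest on few molecules.

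*Cdca3*, which takes part in entry into mitosis, rose by 4.49 ± 0.39, and *Ccna2*, cyclin A, by 5.17 ± 0.56 (adjusted p = 0.00257). Of the 35 genes for cyclins, their kinases and activators, 32 were tested, 18 were higher and 0 lower (median 0.98; 19 of 33, median 0.95, without eRT 2). *Cks1b*, which binds cyclin-dependent kinases, stood at 525, 484, 398, 589 and 640 CPM in cycling and 79.5, 51.0, 43.4, 22.1 and 41.1 CPM in resting cells (3.32 ± 0.24, adjusted p = 1.42e-05). *Foxm1*, the transcription factor of G2 and M genes, was low but separated in each tumor (37.9, 16.2, 16.4, 13.5 and 11.4 CPM against 6.03, 0.779, 0.875, 0 and 0.553 CPM). *Cdk4*, the G1 kinase, differed less (0.93 ± 0.19, adjusted p = 0.0089). The D cyclins *Ccnd1* and *Ccnd2*, which couple growth factor signals to the cycle, and *Myc* did not pass the test, with log2 differences of -0.23, -0.64 and 0.33.

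Genes of S phase were higher to a smaller degree. Of 43 DNA replication genes, 40 were tested, 29 were higher and 0 lower, with a median of 1.22 (34 of 41, median 1.02, without eRT 2). After thinning, 2 of the 22 that could be tested passed. *Rrm1*, the large subunit of ribonucleotide reductase, rose by 2.63 ± 0.22 (adjusted p = 2.18e-05), and *Tyms*, thymidylate synthase, by 2.98 ± 0.36 (adjusted p = 0.00197), from 27.9, 27.5, 21.3, 9.54 and 25.8 CPM to 91.6, 187, 234, 311 and 266 CPM. Both are among the 22 genes of nucleotide synthesis, of which 15 were higher and 0 lower (median 0.80; also 15 of 22, median 0.73, without eRT 2). *Rrm2*, the small subunit of the reductase, passed with eRT 2 (3.79 ± 0.73, adjusted p = 0.0322) and not without it (3.37, with an adjusted p just above 0.05).

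*Prim1*, the catalytic primase subunit, stood at 13.4, 25.4, 40.5, 88.0 and 47.0 CPM in cycling and 6.03, 6.46, 7.00, 2.39 and 7.56 CPM in resting cells (2.29 ± 0.31, adjusted p = 0.00108). *Mcm10*, which helps to start replication forks, rose by 2.87 ± 0.38 and *Cdc45*, a helicase subunit, by 2.67. *Pcna*, the sliding clamp, rose less, by 1.12 ± 0.19 (adjusted p = 0.0036), and so did the helicase subunit *Mcm6*, by 1.13 ± 0.23 (adjusted p = 0.0104), whose difference was -0.13 after thinning. The replication genes were higher in cycling cells of every tumor as a sum, by 0.77, 1.16, 1.52, 3.09 and 1.29 on the log2 scale, least in MYC spinal 2 and most in eRT 2.

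**Figure D4:**
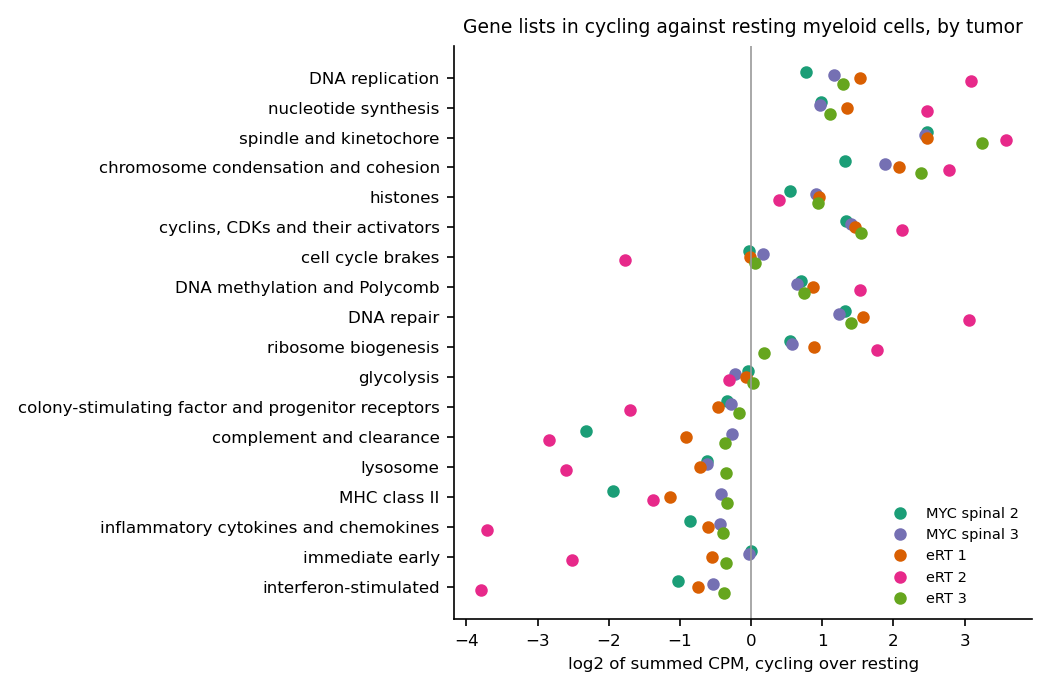
Log2 ratio of the summed CPM of each gene list, cycling over resting cells (horizontal axis), with 1 point per tumor and a line at 0 for equal levels. Spindle, replication and repair lists lie right of 0 in all 5 tumors, interferon-stimulated, MHC class II and lysosome lists lie left of 0 in all 5, and eRT 2 lies farthest out in most lists.

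Chromosome structure changed with the mitotic genes. Of 21 genes of condensation and cohesion, 16 were higher and 0 lower (median 1.73; also 16 of 21, median 1.61, without eRT 2), among them the condensin core gene *Smc2* (3.2 ± 0.21, adjusted p = 6.12e-06). *Hmgb2*, a DNA-bending chromatin protein, stood at 3628, 1075, 1129, 3161 and 1352 CPM in cycling and 1435, 150, 128, 266 and 146 CPM in resting cells (2.62, adjusted p = 0.00185), highest in MYC spinal 2 in both states. Of 33 histone genes 15 passed the filter on low counts and were tested, and 9 were higher and 0 lower (11 of 16 without eRT 2). *H2afz*, a histone variant gene with a polyadenylated transcript, stood at 3273, 3776, 3732, 2958 and 3700 CPM against 1601, 1358, 1017, 828 and 918 CPM (1.43 ± 0.16, adjusted p = 0.000145). *Hist1h2ap* (4.66 ± 0.72, adjusted p = 0.0157) shares near-identical sequence with other histone genes, and its reads could belong to them.

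Part of the genes that keep chromatin marks through replication moved the same way. Of 29 genes of DNA methylation and Polycomb, 26 were tested, 9 were higher and 0 lower (median 0.48), where 7.26% of all genes were higher. Without eRT 2, 11 were higher and 3 lower of 27, where 9.92% of all genes were higher and 10.9% lower. *Ezh2*, the methyltransferase of Polycomb repressive complex 2, stood at 85.5, 94.2, 76.5, 115 and 118 CPM in cycling and 24.7, 26.2, 18.4, 23.9 and 20.1 CPM in resting cells, with no overlap and little spread (1.90 ± 0.16, adjusted p = 2.18e-05). *Suv39h1*, which methylates heterochromatin, rose by 2.13 ± 0.25 and *Dnmt1*, the maintenance DNA methyltransferase, by 1.18 ± 0.22 (adjusted p = 0.00624). Of 29 DNA repair genes, 19 were tested, 12 were higher and 0 lower (median 1.75; 13 of 21, median 1.56, without eRT 2). *Brca1*, of homologous recombination, rose by 1.90 ± 0.30 at low levels (18.3, 9.62, 6.43, 6.77 and 5.70 CPM in cycling cells).

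Of the 30 genes grouped as brakes on the cycle, 28 were tested, 6 were higher and 4 lower (8 and 7 without eRT 2). Of all genes, 7.26% were higher and 5.34% lower (9.92% and 10.9% without eRT 2). The list median of 0.05 and the mean log2 ratio of its sum (-0.32, higher in 2 of 5 tumors) differed in sign. The members that rose include *Cdkn3*, a phosphatase of CDK1 and CDK2, *Cdkn2c*, the INK4 inhibitor p18, at 89.2, 57.7, 60.8, 115 and 121 CPM against 18.1, 18.0, 20.5, 6.56 and 7.74 CPM (2.24, adjusted p = 0.0133), and *Rbl1*, the p107 pocket protein. Those that fell include *Btg2*, an antiproliferative gene of the TOB family, at 79.4, 62.5, 27.3, 196 and 244 CPM against 130, 88.4, 88.4, 635 and 354 CPM (-1.21, adjusted p = 0.00812), and *Cdkn1b*, the inhibitor p27 (-0.70, adjusted p = 0.0233). *Cdkn1a*, the p53 target p21, did not pass the test (-0.40).

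Of 23 ribosome biogenesis genes, which serve growth, 5 were higher and 0 lower (median 0.56), where 7.26% of all genes were higher. Without eRT 2, 13 of 23 were higher, where 9.92% of all genes were. *Nop58*, of the box C/D particle, rose by 0.94 ± 0.19 (adjusted p = 0.00952) and *Ncl*, nucleolin, by 0.75 ± 0.18 (adjusted p = 0.0195). Of 18 glycolysis genes, 0 were higher and 3 lower (0 and 9 without eRT 2), where 5.34% of all genes were lower (10.9% without eRT 2). *Hk2*, a hexokinase, stood at 41.5, 14.4, 16.1, 60.9 and 12.8 CPM in cycling and 50.4, 19.5, 26.8, 266 and 26.0 CPM in resting cells (-1.01, adjusted p = 0.028).

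Interferon-stimulated genes were among the lower genes. Of 23, 21 were tested, 7 were lower and 0 higher with a median of -0.97, and without eRT 2, 17 of 22 were lower with a median of -0.83. *Rsad2*, which encodes the antiviral enzyme viperin, and the acute phase gene *Saa3* were the most reduced of the named genes. *Rsad2* stood at 1.22, 4.81, 19.9, 6.77 and 2.85 CPM in cycling against 13.7, 22.8, 119, 318 and 12.3 CPM in resting cells (-2.94 ± 0.32, adjusted p = 0.00017; -2.63, adjusted p = 5.67e-07, without eRT 2). It was lower in each tumor, while the ranges of the states overlapped across tumors. *Ifit3*, which binds foreign RNA complexes, stood at 0, 4.47, 35.0, 0 and 9.97 CPM against 1.10, 18.4, 121, 78.7 and 14.7 CPM (-2.0 ± 0.30, adjusted p = 0.00164), and reads of *Ifit1* and *Ifit3* can be shared with close copies. *Stat2*, a transcription factor of interferon signaling, fell by 1.29 on the log2 scale. As a sum the list was at 2324, 2698, 4522, 805 and 2938 CPM in cycling and 4732, 3899, 7607, 11230 and 3832 CPM in resting cells, so the gap was widest in eRT 2 and narrowest in eRT 3.

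**Figure D5:**
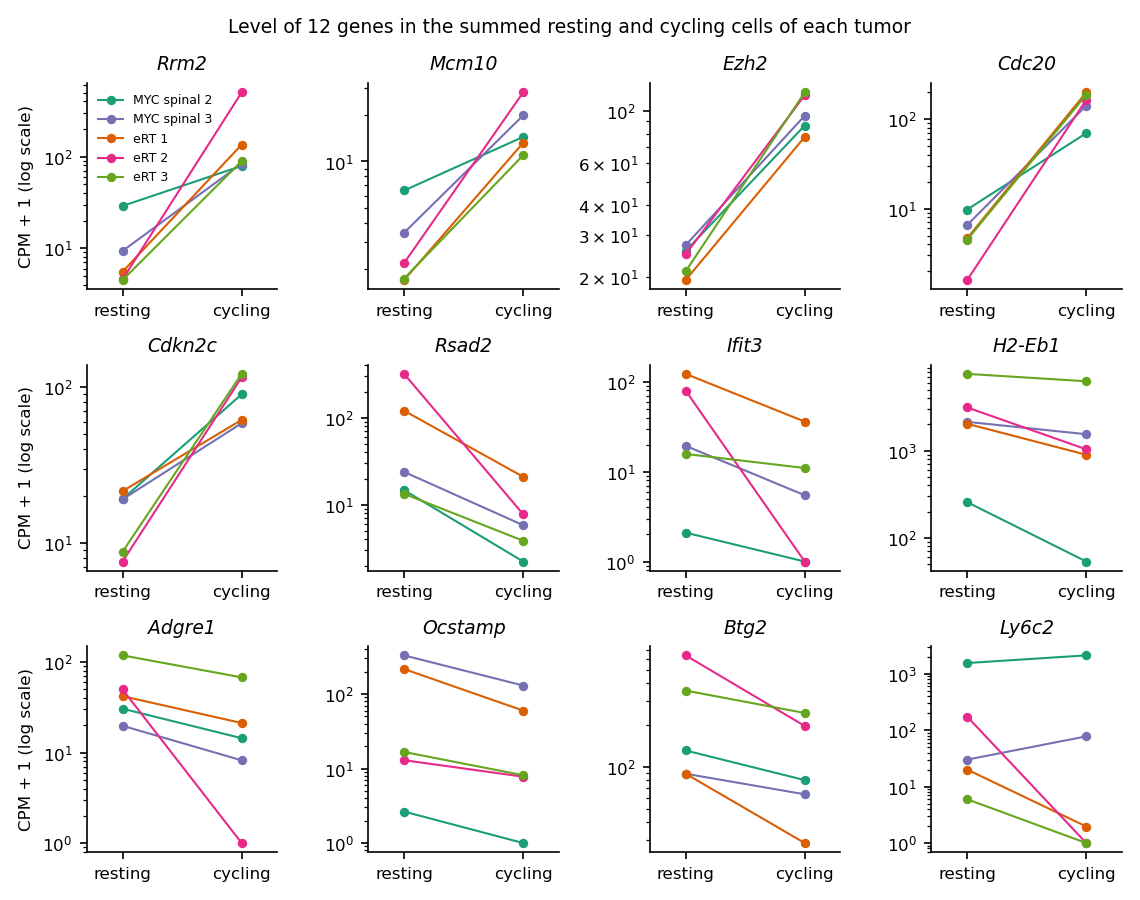
Levels of 12 genes (vertical axes, CPM + 1 of summed counts on a log scale) in the resting and cycling cells of the 5 tumors (horizontal axes), with a line joining the states of 1 tumor. *Ezh2* is higher in cycling cells of every tumor and *Rsad2* is lower in every tumor, from 119 to 19.9 CPM in eRT 1, while *Ly6c2* goes up in the MYC spinal tumors and down in the eRT.

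Several antigen presentation and lysosome genes were also lower at the cells' own depth, where 5.34% of all genes were lower (10.9% without eRT 2). All 9 MHC class II genes were tested, and 5 were lower and 0 higher with eRT 2 (median -0.89), against 3 without it (median -0.92). *H2-Eb1*, a beta chain gene, stood at 52.5, 1544, 897, 1036 and 6258 CPM in cycling and 256, 2142, 2034, 3132 and 7603 CPM in resting cells (-1.34 ± 0.33, adjusted p = 0.0452, and 0.0898 without eRT 2), and *H2-Ab1* lost its call in the same way, while *H2-DMa*, of the peptide loading complex, kept it (-0.85, adjusted p = 0.0141, and 0.00285 without eRT 2). Of 26 lysosome genes, 5 were lower and 0 higher, and 18 were lower without eRT 2. After thinning to 1000 UMIs, 1.74% of 4248 genes were lower. Of the list genes that could then be tested, 1 of 13 interferon-stimulated, 0 of 7 MHC class II and 1 of 24 lysosome genes were lower. Counts this small do not stand apart from the share of all genes. The list medians were -1.0, -0.97 and -0.5. *Ctsd*, cathepsin D, fell by 0.85 ± 0.14 and *Psap*, the saposin precursor, by 0.64 ± 0.13 on the log2 scale.

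Of 14 tested complement and clearance genes, 1 was lower with eRT 2, a share near the 5.34% of all genes, and 6 were lower without it, where 10.9% of all genes were. None was higher in either fit. *Adgre1*, which encodes F4/80, stood at 13.4, 7.22, 20.3, 0 and 67.0 CPM against 29.6, 18.8, 41.1, 48.9 and 118 CPM (-1.31 ± 0.23, adjusted p = 0.00387), and *Mrc1*, the mannose receptor, differed by -1.22 ± 0.28. Of the 12 receptors for colony-stimulating and progenitor factors tested, 2 were lower (6 without eRT 2), among them *Csf3r*, the G-CSF receptor (66, 2.75, 0.321, 13.5 and 7.12 CPM against 131, 6.23, 3.15, 103 and 17.3 CPM). The fusion gene *Ocstamp* of osteoclasts stood at 129 and 58.8 CPM in cycling and 329 and 215 CPM in resting cells of MYC spinal 3 and eRT 1, the tumors with osteoclast markers (-1.68 ± 0.22 over 5 tumors, adjusted p = 0.000492). In MYC spinal 2, eRT 2 and eRT 3, which also enter this test, all 8 osteoclast markers together stood at only 144, 27.1 and 442 CPM in cycling cells. In their resting cells they stood at 505, 122 and 227 CPM, so in eRT 3 this sum was higher in cycling cells.

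Of 23 tested inflammatory cytokines and chemokines, 1 was lower with eRT 2, below the 5.34% of all genes, and 14 were lower without it, against 10.9% of all genes (medians -1.30 and -0.82). Immediate early genes, which stress or dissociation can induce, were lower in 0 of 19 and 6 of 19. *Ccl5*, a chemokine also made by NK and T cells, stood at 23.2, 70.1, 25.4, 156 and 0 CPM against 50.4, 123, 104, 681 and 32.1 CPM (-1.91 ± 0.41, adjusted p = 0.0287), and *Ccr7*, the receptor that guides mature dendritic cells, at 6.11, 1.37, 1.29, 20.3 and 1.42 CPM against 9.86, 6.23, 5.25, 246 and 5.71 CPM (-2.48 ± 0.37, adjusted p = 0.0014). *Hdc*, which makes histamine in mast cells and basophils (-1.99 ± 0.49, adjusted p = 0.0371), and *Slc15a3*, a lysosomal peptide transporter (-1.70 ± 0.34), were lower in each of the 5 tumors. In eRT 3, however, all mast cell and basophil markers together, *Hdc* included, stood at 0 CPM in cycling and 0.184 CPM in resting cells. The direction of *Hdc* there rests on hardly any molecules. In eRT 2, whose cycling cells carry NK markers, the log2 ratio of *Hdc* was -5.58 and stood apart from the other tumors. *Saa3* and *Ckb*, creatine kinase, passed with eRT 2 (-2.94 and -1.75) and not without it (adjusted p = 0.116 and 0.0916). The part of cell composition and depth in these differences was not tested.

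The printed promoter elements were unevenly spread over the gene groups. A promoter window ran from 250 bases before to 50 bases after a RefSeq start, and 6772 of the 8751 genes tested matched the table, with 8624 windows. The CHR letters were present in 11.9% of all these windows, in 25.3% of those of genes called higher and in 12.5% of those called lower, and in 35 of the 53 windows of spindle and kinetochore genes. The E2F letters were in 8.73% of all windows, 16.9% of those called higher and 40.0% of those of replication genes, against 7.55% of those of spindle genes. CCAAT stood in 37.4% of all windows and in 75.5% of those of spindle genes, and the ISRE letters stood in 3.2% of all windows and in 62.5% of those of interferon-stimulated genes (10 of 16 windows). These shares are descriptions of letters, without a test.

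The comparison was repeated within cells that expressed the complement genes *C1qa*, *C1qb* and *C1qc*, which mark macrophages, and within cells that did not. The class of a cell was set at its own depth, also for the thinned counts, and resting cells had fewer UMIs. At an equal level of these genes a resting cell was therefore less likely to count as *C1q*-positive. The part of this in the differences within the classes was not tested. Cells with at least 2 of the 3 genes gave 280, 295 and 195 cycling and 1010, 776 and 2304 resting cells in MYC spinal 3, eRT 1 and eRT 3. Of 8861 genes, 735 were higher (8.29%) and 821 lower (9.27%). Here 29 of 41 replication genes and 58 of 59 spindle genes were higher, and 16 of 22 interferon-stimulated, 19 of 26 lysosome, 8 of 9 MHC class II, 17 of 23 inflammatory and 10 of 12 complement and clearance genes were lower, with 0 of these groups' genes moving the other way. After thinning, when 2.75% of 5097 genes were higher and 3.98% lower, 36 of 37 spindle genes but 0 of 28 replication genes were higher, and 7 of 16 interferon-stimulated, 12 of 24 lysosome, 6 of 8 MHC class II and 12 of 20 inflammatory genes were lower. Members of the groups with lower genes over all myeloid cells were also lower among *C1q*-positive cells of 3 tumors. These cells are part of those compared above, so this is no separate support. *Rsad2* (-2.92, adjusted p = 4.09e-07), *Ifit3* (-1.86) and the chemokine *Ccl8* (-2.36, adjusted p = 0.00195) were among the 5 most reduced, led by the protease inhibitor *Slpi* (-3.09, adjusted p = 3.75e-05), which neutrophils also express.

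Cells without any of the 3 *C1q* transcripts gave 418, 279, 24 and 21 cycling cells in MYC spinal 2, MYC spinal 3, eRT 1 and eRT 2 and fewer calls: of 6599 genes, 205 were higher (3.11%) and 61 lower (0.924%). Of 50 spindle genes tested, 47 were higher, and of 34 replication genes 7, with 1 of 17 interferon-stimulated and 2 of 7 MHC class II genes lower. Without eRT 2, 317 of 6740 genes (4.7%) were higher and 235 (3.49%) lower, with 50 of 51 spindle and 14 of 34 replication genes higher and 9 of 17 interferon-stimulated, 3 of 7 MHC class II and 12 of 26 lysosome genes lower. In the fit with eRT 2, the most reduced of the named genes were *Slfn4* (-2.82, adjusted p = 0.011), the neutrophil collagenase *Mmp8* (-2.81, adjusted p = 0.00958), *Ifit1* (-2.57), *Slc15a3* (-2.57) and *Stfa2l1* (-2.41). *Mmp8* and *Stfa2l1* are genes of neutrophils. The 21 cycling cells of eRT 2 in that fit are among its cycling cells described above as having NK markers. The difference between *C1q*-positive and *C1q*-negative cells in these changes was not tested.

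Whether the change from resting to cycling differed between eRT and MYC spinal tumors was tested as an interaction over the 5 tumors. Of 8751 genes, 1 passed with edgeR (0% higher, 0.0114% lower in eRT) and 3 with DESeq2. With edgeR 173 had an unadjusted p under 0.05, a smaller share of the genes than the 0.05 that would be met by chance. The gene was *Ly6c2*, which marks inflammatory monocytes (chromosome 15, 75108158 to 75111970 on the minus strand of mm10). It stood at 2128 and 77.0 CPM in cycling and 1557 and 29.2 CPM in resting cells of MYC spinal 2 and 3. In eRT 1, eRT 2 and eRT 3 its cycling levels were 0.964, 0 and 0 CPM and its resting levels 19.1, 173 and 4.98 CPM, so that it was higher in cycling cells of both MYC spinal tumors and lower in those of all 3 eRT (difference of the log2 changes -5.87 ± 0.69, adjusted p = 0.0477). In the cycling sums of eRT 1, eRT 2 and eRT 3, 3 UMIs are worth 0.964, 20.3 and 4.27 CPM. The cycling levels in eRT thus lie at or below this floor, and the resting level of eRT 3 is close to it. The call was lost without MYC spinal 3 (adjusted p = 0.53), eRT 1 (0.326) or eRT 3 (0.393) and after thinning (0.209). It was kept without eRT 2 (-5.21, adjusted p = 0.00965), whose cycling cells carry NK markers. With 2 against 3 tumors, and with subtype, site and cre strain partly bound together, these cannot be told apart.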

How the data were processed

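Single cells of 6 tumors were analysed. Per the submitters' processing notes reads were processed with Cell Ranger 2.0.2 on mm10, and the authors deposited 1 table of UMI counts per tumor, not normalized and not yet filtered for poor cells (3841706 to 26184224 UMIs per tumor in kept cells; columns not used number 0). Samples were assigned by the mouse number in their labels. The members and gene lists were chosen with earlier results of these data known.

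The 22163 of 22681 cells with 200 or more detected genes and a mitochondrial share of 25% or less were kept. Scrublet (scanpy 1.11.5) marked 21 of them, an implausibly low share (0.0948%), so no cell was taken out; the 843 top scores were left out as an alternative. Counts were summed per tumor and state where both states had at least 10 cells, and tested with edgeR 4.0.16 (R 4.3.3; filterByExpr, TMM, robust quasi-likelihood fit, Benjamini-Hochberg adjusted p under 0.05) with the tumor as block. The genes of the rule and the gate stayed in library sizes and were not tested. Both states of a tumor come from the same animal, which gives the pairing; their deviations from the state means over 3502 genes correlated at 0.908, 0.806, 0.882, 0.269 and 0.850 (MYC spinal 2, MYC spinal 3, eRT 1, eRT 2 and eRT 3). P-values of the gene tests measure the spread, over these tumors, of the change between the states. Differences in level between tumors are taken up by the block. Scripts were tested on simulated data. Named were the 8 genes of the rule, members of the gene lists, and, for each direction, the 10 called genes with the largest log2 change among those whose mean log2 CPM reached 5 with the same direction in every tumor (5 within *C1q* classes, 3 for the interaction). Alternatives were DESeq2 1.42.0, other scaling, filters, thresholds, thinning and leaving out each tumor. Shares were tested with exact permutations (scipy 1.17.1).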

Additional observations from a re-analysis of the deposited data

Results flagged for a closer look

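With 5 tumors, 36 log2 ratios of cycling over resting cells were searched for a tumor that stands apart from the others, and 11 had one, in each case eRT 2. Chance alone marks about 1 in 20 such results, and these results share the same 24 cycling cells, in which NK markers were detected. In eRT 2 the log2 ratio was 2.48 for nucleotide synthesis genes, 2.13 for cyclins, their kinases and activators, 1.53 for DNA methylation and Polycomb genes and 3.06 for DNA repair genes. It was -1.78 for cell cycle brakes, -1.70 for colony-stimulating factor and progenitor receptors, -2.61 for lysosome genes, -3.71 for inflammatory cytokines and chemokines, -2.52 for immediate early genes and -3.80 for interferon-stimulated genes. For *Hdc* it was -5.58 in this tumor, over the 4 tumors in which both states had counts.

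*Ly6c2* differed between the subtypes in its change from resting to cycling cells, by -5.87 on the log2 scale (edgeR quasi-likelihood test, adjusted p = 0.0477), with higher values in cycling cells of the 2 MYC spinal tumors and lower values in the 3 eRT. The call was lost without MYC spinal 3, eRT 1 or eRT 3 (adjusted p = 0.326 to 0.53).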

How the results depend on the processing

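Of 106 named gene results under all alternatives, 1308 of 1566 comparisons kept direction and side of the threshold, 254 kept only the direction and 4 turned: *Mcm6* (-0.13) and *Maf* (0.019) after thinning to 1000 UMIs, and *Ccr2* after thinning (0.16) and with cells limited to the interquartile depth range of cycling cells (0.54). The cause was not tested. Depth limits low genes: thinned sums held 4248 tested genes, and 1 UMI is worth 6.77 CPM in the cycling sum of eRT 2. The 635 higher and 467 lower genes became 357 and 276 in the interquartile depth range, 117 and 74 after thinning, and 983 and 269 without TMM factors; the lower genes became 997 with every gene of at least 1 UMI and 1022 without cells holding NK or B cell markers. Leaving out a tumor gave 263 to 914 higher genes (305 without MYC spinal 3, 263 without eRT 1) and 37 to 1001 lower genes (309 without MYC spinal 2, 123 without MYC spinal 3, 37 without eRT 1, 1001 without eRT 2). Without the replicate block, which drops the pairing by tumor, 173 genes were higher and 0 lower (edgeR), 177 genes were called in *C1q*-positive and 33 in *C1q*-negative cells.

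The 1556 calls in *C1q*-positive cells became 691 with DESeq2 and 343 after thinning, and 750 to 1715 with a tumor left out (750 without eRT 1). The 266 calls in *C1q*-negative cells became 35 after thinning, 1043 with every gene of at least 1 UMI, and 30 to 552 with a tumor left out (30 without MYC spinal 3, 45 without eRT 1, 149 without MYC spinal 2, 552 without eRT 2). Without cells holding NK or B cell markers, an alternative chosen for this class and for the interaction after seeing the data, they became 579. The single interaction gene became 3 under that alternative, with DESeq2 and without TMM factors, 9 after thinning, 41 with every gene of at least 1 UMI, 0 for Sox2-cre against Rosa26-cre tumors, and 0 to 3 with a tumor left out.

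The subtype difference in the cycling share (-0.378 points) was 0.956 points with at least 4 rule genes and -5.28 to 3.14 points with a tumor left out, with positive values of 1.21, 2.18, 3.14 and 1.01 points without MYC spinal 2, MYC spinal 3, eRT 2 and eRT 3. The difference between myeloid and other cells was -1.01 to 0.556 points with a tumor left out.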
